A study of Arabidopsis thaliana with 12 samples.

Results

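The rows described here are 60 rows of an Arabidopsis thaliana expression array, each of 1 annotated gene, whose signal was higher after treatment in every same-number pair of samples. They were chosen from 3439 rows by their measured values. A row had to carry exactly 1 gene in the platform annotation (692 rows), show no 0 on any array (545 of those), have a mean treated intensity of at least 1.5 times the mean water intensity, and lie higher in the treated than in the water array in all 6 pairs of equal replicate number. These criteria were met by 67 rows, 12.3% of the 545, and 7 of them were left out by gene name, PSBW, AT1G74730, AT1G74470, AT5G58330, AT1G67820, AT5G05400 and GLR2.7 as the rule states. The 4 other names in that list, SRX, CCS, CBL and AT1G29070, each have a row of 1 gene, and it did not meet the criteria. The treated against water difference of these 60 genes is therefore how they were found, and it is given below as a description without a test.

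Total RNA came from wild-type plants of the ecotype Columbia 0. The water group (6 arrays) was kept in water for 8 h. The treated group (6 arrays) first received staurosporine at 2 µM for 4 h, followed by 4 h in ascorbate at 25 mM and pH 5.5. Both groups are untransformed wild type, no group received one compound alone or a solution of this pH without ascorbate, and the labels name neither tissue nor age, so the compounds, their order and the pH cannot be told apart. The labels do not say whether equal or adjacent replicate numbers share plants, RNA or a day, so the spread between arrays may be technical.

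Staurosporine blocks the ATP site of many protein kinases, the enzymes that pass signals by adding phosphate to other proteins. Ascorbate, vitamin C, is an abundant antioxidant of plants and takes part in removing hydrogen peroxide in the chloroplast. The 60 genes are nuclear genes of many kinds, among them enzymes, RNA-binding proteins of organelles, motor proteins and proteins of the cell wall.

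The deposited values are linear intensities with no unit, with a mean between 0.857 and 1.04 on each array. Between 10.3% and 15.2% of the rows of an array are listed at 0. All 7 genes of a list of leaf photosynthesis genes have a row of 1 gene and 6 of them gave signal, while SBPASE is listed at 0 on all 12 arrays. None of 8 root genes has a row of 1 gene, so root RNA could not be looked for. How far a signal lies above background is unknown, and levels are compared here between arrays for the same row, not between genes.

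In water the mean intensity of the 60 rows ran from 0.0691 to 5.68, and after treatment from 0.200 to 10.5. The ratio of means had a median of 1.96 and a highest value of 3.34. A ratio of at least 2 was reached by 29 rows, and of at least 3 by 5 rows, AT1G58230, AT5G52660, AT1G34270, AT4G05030 and AT1G56460. The size of several of these depends on how low signal is treated and on the scaling. With values under the 10th percentile of positive intensities (0.144) raised to it before quantile normalization, the log2 fold change of AT5G52660 was 0.71. Without this floor, in quantile-normalized values, it was 2.22. In the same order, AT1G56460 had 0.57 and 2.13, AT4G05030 1.19 and 1.91, AT1G58230 1.52 and 2.23, and AT1G34270 1.82 and 1.83. As deposited, without floor or normalization, AT5G52660 had 1.82, AT1G56460 1.61, AT4G05030 1.47, AT1G58230 2.03 and AT1G34270 1.67. In 40 of the 60 rows every treated array lay above every water array, as in 7.04% of all 3439 rows, a difference that the choice of the rows brings with it. In a limma fit over the whole table, 56 of the 60 passed an adjusted p of 0.05, against 16.7% of all rows called higher, and nothing is read from that count because the same contrast chose the rows. When the arrays with replicate numbers 1 and 2, 3 and 4, and 5 and 6 were averaged first, 30 of the 60 passed. In that fit 418 of all 3439 rows passed in either direction, and nothing is read from this count either.

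The rows that met the same numeric criteria in the opposite direction were more numerous. They were 97 of the 545 (17.8%), and among all 3439 rows 14.0% met the criteria downward and 10.3% upward. These shares depend on the scaling of the arrays. Of the rows called by limma, 50.7% were higher after treatment in quantile-normalized values and 39.2% in the values as deposited. Dividing each array by its median raised the number of genes that meet the rule from 60 to 74, including all 60, and quantile normalization raised it to 82, including 59 of the 60.

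**Figure D1:**
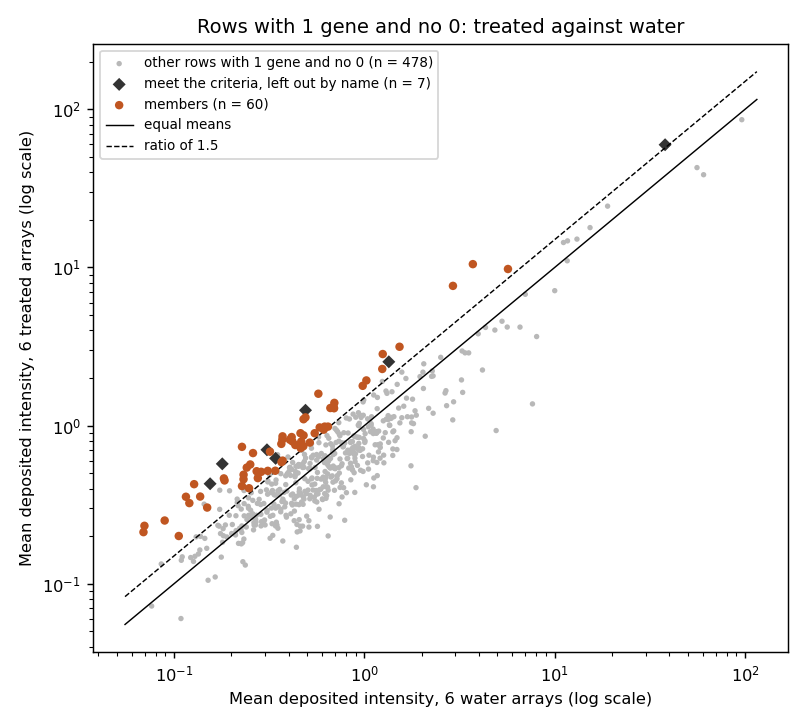
Mean deposited intensity of each row with 1 gene and no 0 over 6 water arrays (horizontal) and 6 treated arrays (vertical), both on log scales. The 60 members lie on or above the dashed line of a ratio of 1.5, over water means from 0.0691 to 5.68, with the 7 rows left out by name as diamonds.

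The limit of 1.5 cuts through a continuous range. Just inside it lay AT4G22490 with a ratio of 1.53, AT4G09040 with 1.52 and AT4G33480 with 1.51. Just outside lay AT2G37420 with 1.49, AT1G64430 with 1.47 and AT4G16410 with 1.46, each of which was also higher in all 6 pairs. Leaving out 1 replicate number at a time kept 51 of the 60 genes in every case. The other 9, AT2G25870, AT4G22490, AT4G33480, SIS, AT4G09040, AT1G05860, LpxA, AT1G25500 and PIFI, missed the ratio of 1.5 in at least 1 of these trials, with ratios between 1.34 and 1.49.

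AT1G58230, a large protein with a BEACH domain, a domain found in proteins of membrane traffic, had the largest ratio. Its intensities ran from 0.0153 to 0.176 in water (median 0.140) and from 0.328 to 0.597 after treatment (median 0.381). The groups did not overlap, and the single water value of 0.0153 on replicate 2 lay far under the other 5. Without that replicate number its ratio of means was 2.96, against 3.34 with all. AT5G52660, a MYB-like protein related to the clock regulators CCA1 and LHY, followed with values from 0.0362 to 0.0917 in water (median 0.0815) and from 0.194 to 0.290 after treatment (median 0.231). Its water values split by replicate number, with 0.0362 and 0.0390 on replicates 1 and 2 and values from 0.0808 to 0.0917 on the other 4, whereas its treated values showed no such split. Its ratio of means was 3.33.

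AT1G34270, a protein of the exostosin family of glycosyltransferases, was among the most even in water. Its intensities ran from 0.214 to 0.250 in water (median 0.225) and from 0.507 to 0.822 after treatment (median 0.767). All treated values lay above all water values, and the lowest of them, on replicate 3, was still 0.507. The ratio of means was 3.23, and 3.45 without number 3. AT3G52070, a gene to which no role is given here, had the most constant ratio of all 60. Its values ran from 2.45 to 3.47 in water (median 2.97) and from 6.53 to 9.04 after treatment (median 7.76). Water and treated arrays of the same number moved together, so that the 6 ratios stayed within 2.56 to 2.72. AT3G58610, the ketol-acid reductoisomerase of branched-chain amino acid synthesis, was also even, with values from 0.449 to 0.522 in water (median 0.498) and from 0.998 to 1.37 after treatment (median 1.10), no overlap between the groups, and pair ratios of 2.01 to 2.64.

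**Figure D2:**
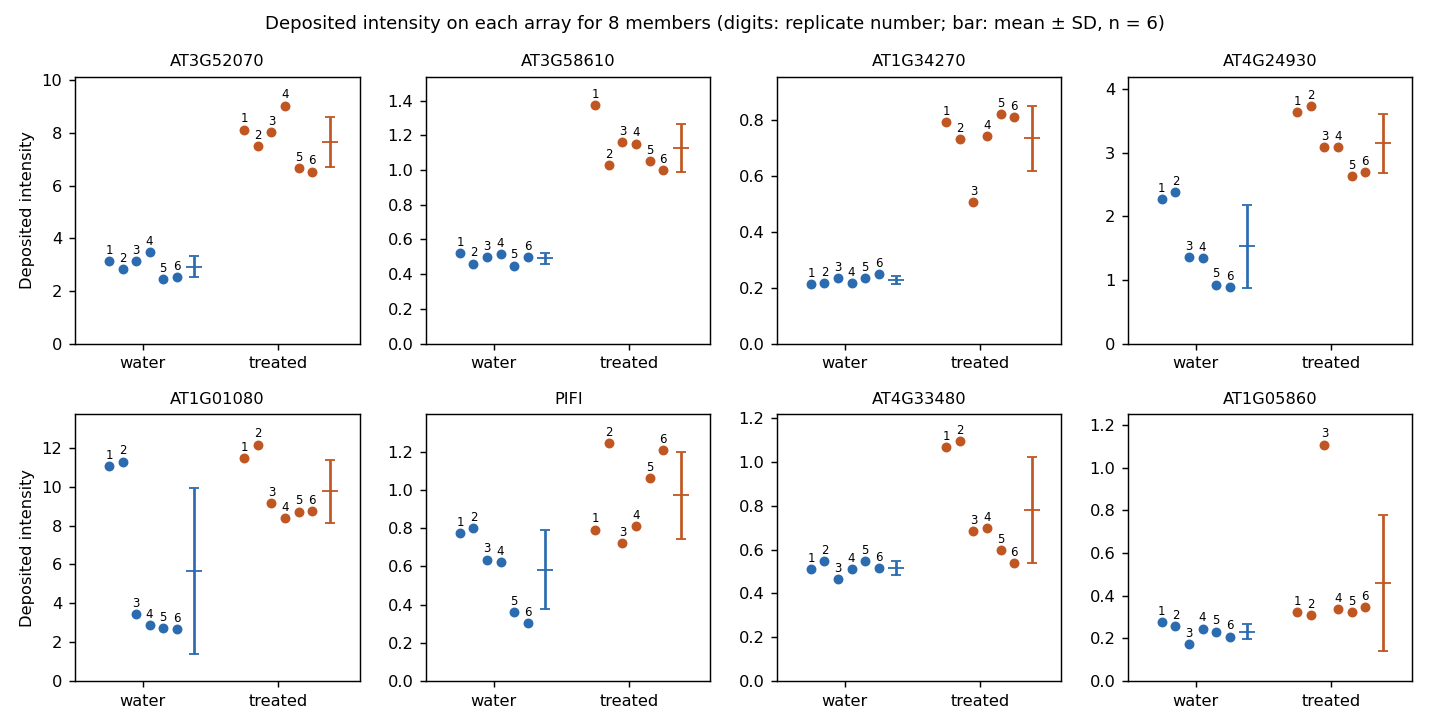
Deposited intensity (vertical, from 0) on each of the 6 water and 6 treated arrays for 8 members, with the replicate number at each point and mean ± SD beside it. AT3G52070, AT3G58610 and AT1G34270 show clear gaps between the groups, AT4G24930, AT1G01080 and PIFI show water values that are highest on replicates 1 and 2, AT4G33480 shows treated values that are highest there, and AT1G05860 rests on the treated value of 1.11 on replicate 3.

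The genes were grouped by what their products are known to do, after their values had been seen. A role is given to 33 of the 60 and none to 27. The groups are an order for the description, and no test was made of any of them. Their counts of genes without overlap stand beside 40 of all 60 members and 7.04% of all rows. Nothing is read from these counts, because the same contrast chose the rows.

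Plastid function held 4 genes with ratios between 1.67 and 2.06. AT4G24930 encodes a protein of the thylakoid lumen, the space inside the photosynthetic membranes. Its values ran from 0.887 to 2.38 in water (median 1.35) and from 2.63 to 3.74 after treatment (median 3.09), without overlap, and its ratio of means was 2.06. In water it stood at 2.27 and 2.38 on replicates 1 and 2, at 1.36 and 1.35 on 3 and 4, and at 0.929 and 0.887 on 5 and 6, so that the spread between the number pairs was wide and that within them narrow. AT2G38550, of a family that carries fatty acids out of the plastid, had intensities of 1.02 ± 0.0795 in water and 1.93 ± 0.339 after treatment (mean ± SD, n = 6 each, as below). AT1G68660, the adaptor that brings substrates to the Clp protease of plastids, had 0.287 ± 0.0429 in water and 0.510 ± 0.101 after treatment. In both, every treated array lay above every water array.

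PIFI, a plastid protein of chlororespiration named for the rise in chlorophyll fluorescence after light is turned off, differed from those 3. Its values ran from 0.303 to 0.800 in water (median 0.628) and from 0.723 to 1.24 after treatment (median 0.935), and the groups overlapped. On replicate 1 the treated array exceeded the water array by a ratio of 1.02, and on replicate 6 by 3.98. Averaged as geometric means, its ratio was 1.26 on numbers 1 and 2, 1.22 on 3 and 4 and 3.43 on 5 and 6, and without number 6 its ratio of means was 1.45.

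Proteins that bind or process RNA formed the largest group with a role, 8 genes with ratios between 1.52 and 2.77. In 5 of them the groups did not overlap, against 40 of all 60 members. AT3G07790, related to the splicing-associated protein DGCR14 of animals, led with 0.573 ± 0.140 in water and 1.59 ± 0.162 after treatment, a ratio of 2.77. AT4G30150, of a family that acts in ribosome assembly in yeast (Urb2), had 0.406 ± 0.0317 in water and 0.814 ± 0.123 after treatment. AT3G11960, related to the A subunit of the factor that cleaves and polyadenylates pre-mRNA, had 0.272 ± 0.0652 in water and 0.514 ± 0.104 after treatment. All 3 had groups apart.

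AT1G01080, an RNA-binding protein of the type found in plastids, had a wide water range. Its values ran from 2.66 to 11.3 in water (median 3.17) and from 8.37 to 12.2 after treatment (median 8.95). The water arrays of replicates 1 and 2 stood at 11.1 and 11.3, within the treated range, and the other 4 water arrays between 2.66 and 3.45. Its ratio was thus 1.06 on numbers 1 and 2, 2.77 on 3 and 4 and 3.25 on 5 and 6, and only 2 treated arrays exceeded the highest water array. AT4G09040, another RNA-binding protein of this type, had 0.340 ± 0.117 in water and 0.518 ± 0.0995 after treatment, with overlap. AT3G27550, with a CRM domain as in splicing factors of organelle introns, had 0.248 ± 0.0344 in water and 0.401 ± 0.0760 after treatment, and AT1G76050, a pseudouridine synthase, which modifies uridines in RNA, had 0.372 ± 0.0727 in water and 0.600 ± 0.0776 after treatment. In these last 2 genes the groups did not overlap.

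AT2G25870, which holds an endoribonuclease domain of the YbeY type known from bacterial ribosome maturation, is measured on 2 rows, and they went opposite ways. On the member row its values ran from 0.321 to 0.698 in water (median 0.403) and from 0.478 to 1.14 after treatment (median 0.639), higher after treatment in all 6 pairs, with a ratio of 1.56. On its other row they ran from 0.725 to 1.18 in water (median 0.885) and from 0.550 to 0.914 after treatment (median 0.614), lower in all 6 pairs, with a ratio of 0.734. The difference on the other row did not pass with group as the only term (limma adjusted p 0.122) and passed with the replicate number as a block (0.00526). On means of adjacent numbers its limma adjusted p was 0.392. No direction is given for this gene, though its member row stays in the counts. RefSeq lists AT2G25860 as a synonym of this locus, and the sources used here do not give which part of the transcript each row measures.

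Enzymes of metabolism numbered 7, with ratios between 1.59 and 2.30. The groups did not overlap in 6 of them, against 40 of all 60 members. Besides AT3G58610, SIRB, the ferrochelatase that inserts iron in the last step of siroheme synthesis, had 0.366 ± 0.0350 in water and 0.766 ± 0.188 after treatment, a ratio of 2.09. AT2G35390, a phosphoribosyl pyrophosphate synthetase, which makes the activated ribose of nucleotide synthesis, had 0.695 ± 0.104 in water and 1.39 ± 0.408 after treatment. Pair ratios were 1.51 to 2.86 for SIRB and 1.43 to 2.41 for AT2G35390.

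ATSPS4F, a sucrose phosphate synthase, had 0.618 ± 0.0913 in water and 0.985 ± 0.251 after treatment, a ratio of 1.59. LpxA, named for the first acyltransferase of lipid A synthesis in bacteria, had 0.367 ± 0.0615 in water and 0.588 ± 0.0967 after treatment, and its ratio was 1.25 on numbers 1 and 2 and 2.28 on numbers 5 and 6. AT4G20760, an oxidoreductase of the NAD(P)-binding Rossmann fold, had 0.319 ± 0.0936 in water and 0.684 ± 0.300 after treatment. AT4G33540, of the metallo-beta-lactamase family, had 0.663 ± 0.349 in water and 1.29 ± 0.481 after treatment and was the metabolic gene whose groups overlapped.

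**Figure D3:**
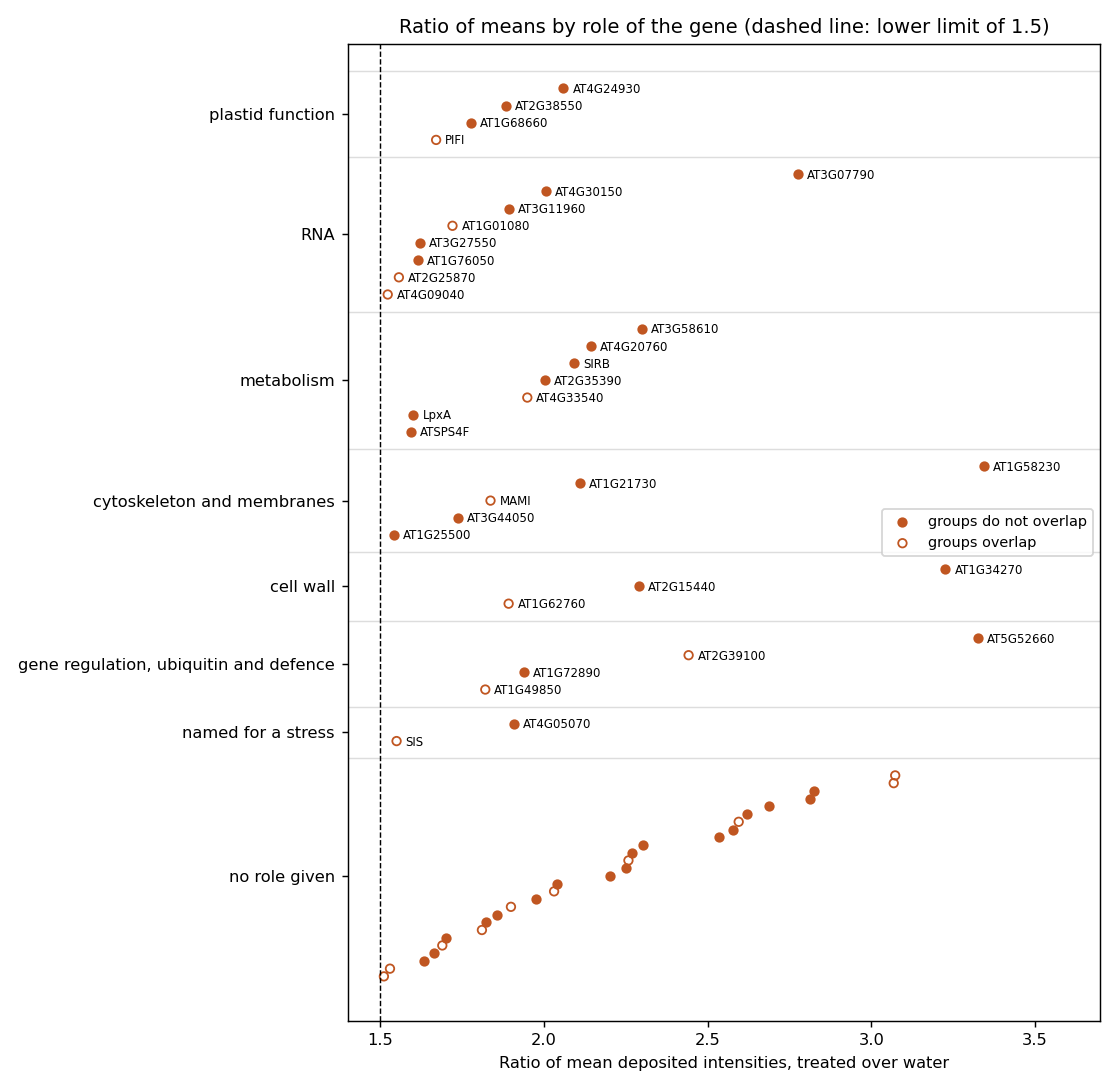
Ratio of mean deposited intensities, treated over water (horizontal), for each of the 60 members, grouped by the role of the gene. Filled points are members whose 6 treated arrays all lie above all 6 water arrays (40), open points those with overlap (20), and the 27 members without a given role are unnamed in the plot.

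Motor proteins were represented by 2 genes. AT1G21730, a kinesin-related protein of mitochondria, ran from 0.210 to 0.261 in water (median 0.228) and from 0.323 to 0.563 after treatment (median 0.529), without overlap and with a ratio of 2.11. AT3G44050, another kinesin, ran from 0.361 to 0.479 in water (median 0.449) and from 0.632 to 0.942 after treatment (median 0.720), also without overlap and with a ratio of 1.74. Kinesins are motors that move cargo along microtubules or act in the spindle and in the forming cell plate.

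A list of 21 other kinesin genes, written after the members were known, had 3 on a row of 1 gene. AT2G37420, a kinesin of the class of spindle motors, had 0.345 ± 0.0354 in water and 0.515 ± 0.0498 after treatment, all 6 treated arrays above all water arrays, with a limma adjusted p of 0.00108. With a ratio of 1.49 it fell just short of the limit for members, and on means of adjacent numbers its limma adjusted p was 0.0537. AT3G20150 had 0.451 ± 0.0590 in water and 0.553 ± 0.0690 after treatment, higher in 5 of 6 pairs, with a limma adjusted p of 0.00773, or 0.0527 in values as deposited and 0.138 on means of adjacent numbers. AT4G14330 is listed at 0 on all 12 arrays. So 2 of the 3 listed kinesins passed in the fit on all 12 arrays, both higher, and neither passed on means of adjacent numbers. Of all rows, 32.9% passed in either direction in the first of these fits and 16.7% were higher. Because the list followed from the members and AT4G14330 gave no signal, nothing is read from this count.

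**Figure D4:**
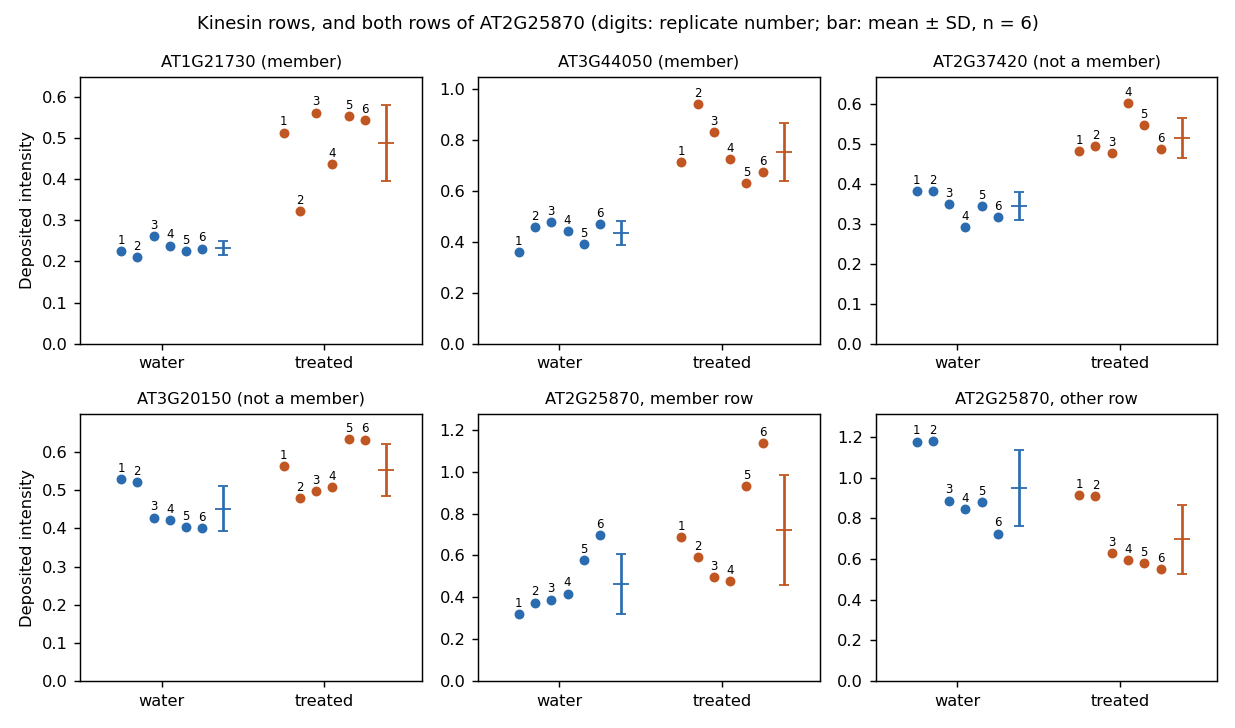
Deposited intensity (vertical, from 0) on each array for 4 kinesin rows and for both rows of AT2G25870, with replicate numbers and mean ± SD. The kinesin rows are higher after treatment by ratios from 1.23 to 2.11, and the rows of AT2G25870 go in opposite directions.

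The lists of partners written for the other pathways of the members held few measured genes, so that of 126 genes in 12 lists 8 had a row of 1 gene, the 3 kinesins included. Of the other 5, 4 had signal on all 12 arrays, and none of these passed in limma. AT3G23940, the dehydratase that follows AT3G58610 in branched-chain amino acid synthesis, ran from 0.207 to 0.422 in water (median 0.290) and from 0.224 to 0.457 after treatment (median 0.409), with overlap (adjusted p in limma 0.156). AT2G44530, another phosphoribosyl pyrophosphate synthetase, had 0.418 ± 0.107 in water and 0.315 ± 0.0902 after treatment (adjusted p 0.331). The last 2 are an adaptor and a splicing factor. AT2G03390, which works with AT1G68660 as a Clp adaptor, had 0.938 ± 0.145 in water and 0.701 ± 0.164 after treatment (adjusted p 0.133). AT4G29750, another CRM protein, had 0.212 ± 0.0259 in water and 0.217 ± 0.0707 after treatment (adjusted p 0.696). Of these 4 genes, 2 had lower means after treatment. NdhN, a subunit of the plastid NADH dehydrogenase-like complex, is listed at 0 on 11 of 12 arrays.

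Among membrane proteins, MAMI, named as membrane-associated and induced by mannitol, had 1.24 ± 0.324 in water and 2.28 ± 0.536 after treatment. Its groups overlapped, because the water array of replicate 2 stood at 1.84, yet its pair ratios stayed within 1.60 to 2.14. AT1G25500, of the choline transporter-like family, had 0.612 ± 0.0578 in water and 0.942 ± 0.253 after treatment, with pair ratios of 1.18 to 1.97. The cell wall group held AT1G34270 and 2 more. AT2G15440, of the DUF579 family known from xylan synthesis, had 0.479 ± 0.0522 in water and 1.10 ± 0.336 after treatment, without overlap, and its ratio was larger on numbers 1 to 4 (2.34 and 3.28) than on 5 and 6 (1.38). AT1G62760, an inhibitor of the pectin methylesterase and invertase type, had 0.106 ± 0.0320 in water and 0.200 ± 0.0691 after treatment, with overlap. In quantile-normalized values its log2 fold change was 0.50 with the floor at 0.144 and 1.18 without it, and as deposited it was 0.87.

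Regulation, ubiquitin and defence held 4 genes, AT5G52660 among them. AT2G39100 and AT1G49850, both with the RING domain typical of ubiquitin ligases, each differed by couple of replicate numbers. AT2G39100 had ratios of 2.49, 1.20 and 3.47 on numbers 1 and 2, 3 and 4, and 5 and 6. AT1G49850 had 2.03, 1.21 and 2.08, and in both the groups overlapped. Both had their smallest ratio on numbers 3 and 4, as did 29 of the 60 genes, in deposited values. The same was not counted over the 545 rows with 1 gene and no 0, and nothing is read from this count. AT1G72890, a protein of the TIR and nucleotide-binding type of disease-resistance proteins, had 0.462 ± 0.0547 in water and 0.895 ± 0.0864 after treatment, without overlap. Of the genes named for a stress, AT4G05070, of a wound-responsive family, had 0.688 ± 0.0653 in water and 1.31 ± 0.425 after treatment, without overlap, and SIS, named as salt-induced and serine-rich, had 0.478 ± 0.111 in water and 0.740 ± 0.146 after treatment, with overlap.

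Among the 27 genes without a given role, the ratios ran from 1.51 to 3.07. The groups did not overlap in 17 of these genes, against 40 of all 60 members. AT4G05030 ran from 0.0768 to 0.153 in water (median 0.115) and from 0.126 to 0.606 after treatment (median 0.310), and its ratio was 1.38 on numbers 1 and 2, 2.86 on 3 and 4 and 5.34 on 5 and 6. AT1G56460 ran from 0.0390 to 0.123 in water (median 0.0655) and from 0.0797 to 0.331 after treatment (median 0.200), again with 1 treated array inside the water range. AT4G09620 ran from 2.07 to 6.34 in water (median 2.93) and from 7.89 to 12.7 after treatment (median 11.3), without overlap. Its water values were 5.78 and 6.34 on replicates 1 and 2 and from 2.07 to 3.04 on the other 4, so its ratio was 1.87 on the first 2 numbers and 5.63 on the last 2.

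AT4G27390 (0.0893 ± 0.0286 in water and 0.251 ± 0.0595 after treatment), AT3G61870 (0.120 ± 0.00581 in water and 0.323 ± 0.106 after treatment) and AT2G01400 (0.183 ± 0.0194 in water and 0.463 ± 0.177 after treatment) had groups that did not overlap. In quantile-normalized values the log2 fold change of AT4G27390 was 0.82 with the floor at 0.144 and 1.89 without it, and as deposited it was 1.52. That of AT3G61870, whose water values all lay under 0.144, was 1.17 with this floor, 1.70 without it and 1.35 as deposited. AT4G15840 (0.260 ± 0.0642 in water and 0.670 ± 0.140 after treatment), AT3G51510 (0.371 ± 0.0516 in water and 0.855 ± 0.238 after treatment) and AT2G32470 (0.241 ± 0.0241 in water and 0.542 ± 0.0920 after treatment) were also apart. AT1G13990 had 1.25 ± 0.0727 in water and 2.83 ± 1.09 after treatment, without overlap. Its ratio was 3.06 on numbers 1 and 2 and 1.33 on 5 and 6. AT4G22490 had 0.644 ± 0.0404 in water and 0.985 ± 0.245 after treatment and AT4G33480 had 0.517 ± 0.0310 in water and 0.781 ± 0.241 after treatment, and both had their smallest ratio on numbers 5 and 6 (1.13 and 1.07).

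In AT1G05860, AT3G04560 and AT5G52530, among others, 1 array stood far from the rest. AT1G05860 ran from 0.172 to 0.276 in water (median 0.238) and from 0.309 to 1.11 after treatment (median 0.331). The groups did not overlap, but 5 treated arrays stood between 0.309 and 0.346 and only replicate 3 reached 1.11. Without number 3 its ratio of means was 1.34, against 1.98 with all. AT3G04560 ran from 0.0321 to 0.346 in water (median 0.287) and from 0.294 to 0.835 after treatment (median 0.593), with the lowest water value on replicate 2, where the pair ratio was 13.7, and its ratio of means was 2.26 with all and 2.01 without number 2. AT5G52530 ran from 0.0953 to 0.185 in water (median 0.139) and from 0.132 to 0.475 after treatment (median 0.368), with a low treated value on replicate 3, and a ratio of means of 2.59 with all and 2.75 without number 3. The 4 members that did not pass in limma were AT3G04560, AT1G05860, AT2G43180 (0.479 ± 0.190 in water and 0.867 ± 0.355 after treatment) and AT2G23390 (0.275 ± 0.107 in water and 0.465 ± 0.175 after treatment).

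The remaining 9 genes of this kind, AT4G20300, AT1G72020, AT1G06510, AT2G37750, AT1G15410, AT1G35340, AT5G42680, AT5G49800 and AT4G30740, had ratios between 1.63 and 2.20. AT1G72020 was the most even of them over the pairs, with ratios of 1.91 to 2.31. The groups overlapped in AT1G06510 and AT2G37750.

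Over the 60 genes the size of the difference in deposited values was not the same on all replicate numbers. As log2 ratios of treated to water, the medians were 0.98 on numbers 1 and 2, 0.77 on 3 and 4, and 1.14 on 5 and 6. The largest of these 3 values fell on numbers 5 and 6 in 34 genes, on 1 and 2 in 22, and on 3 and 4 in 4. The same was not counted over the 545 rows, and differences in scaling between arrays remain in these ratios. Nothing about the 60 genes is read from these counts. All 545 rows with 1 gene and no 0 had medians of -0.20, -0.18 and 0.01, also highest on 5 and 6 but with little between the other couples. Whether the 60 differ from these rows in this order was not tested. Within a gene, the 3 values spanned a median of 0.61, against 0.70 for all 545 rows. The span was under 0.5 in 24 genes and over 1 in 13.

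Each gene was higher in all 6 pairs by the rule, but not by the same factor. Every pair reached a ratio of 1.5 in 21 genes and of 2 in 6, and 22 genes had some pair under 1.3. The geometric mean ratio was at least 1.3 on all 3 couples of numbers in 48 genes. It was lower than that on numbers 1 and 2 in 4 genes (AT1G01080, AT1G05860, LpxA and PIFI), on 3 and 4 in 6 (AT2G39100, AT1G49850, PIFI, AT2G25870, AT1G25500 and AT4G09040) and on 5 and 6 in 3 (AT4G22490, AT4G33480 and ATSPS4F).

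**Figure D5:**
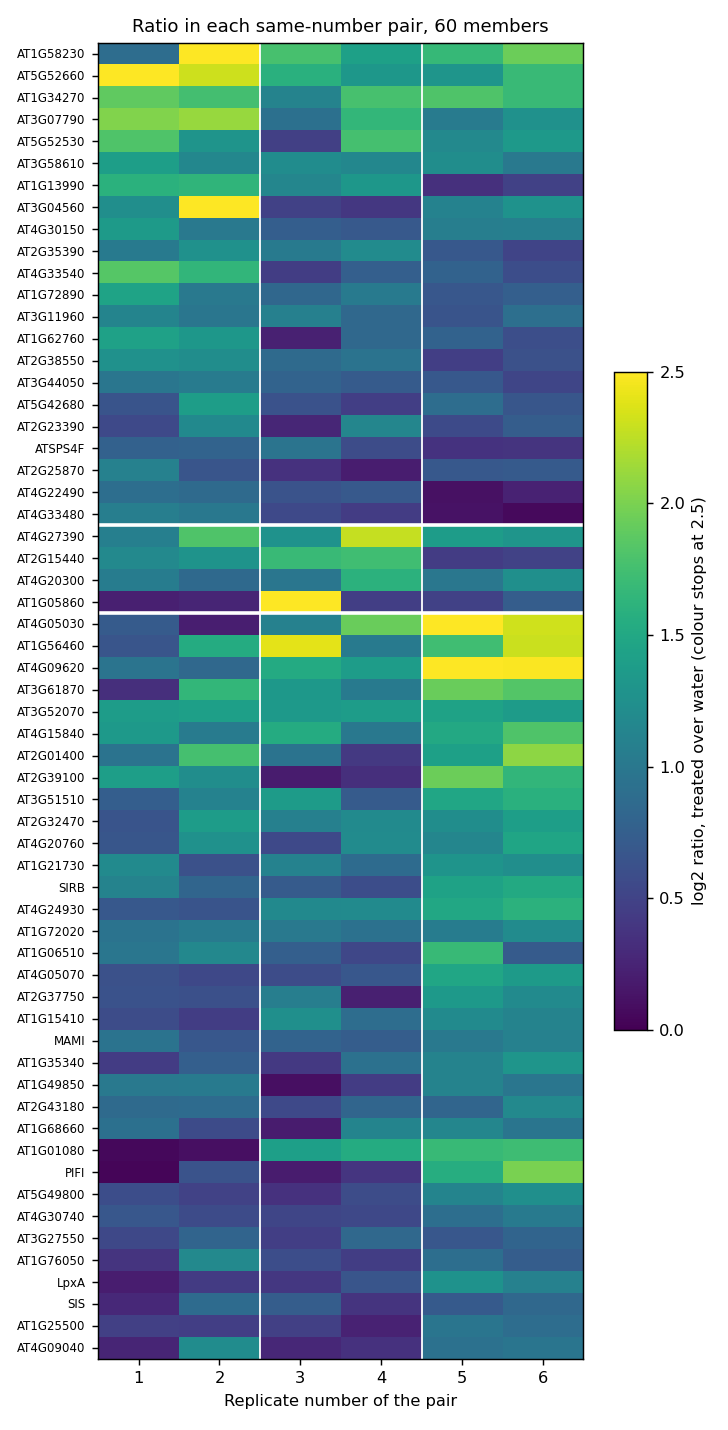
Log2 ratio of treated to water in each of the 6 same-number pairs (columns) for the 60 members (rows), in 3 blocks by the couple of numbers with the largest value (1 and 2 in 22 genes, 3 and 4 in 4, 5 and 6 in 34) and then by ratio of means. AT3G52070 has nearly the same colour throughout, whereas AT1G01080 and PIFI are dark on number 1 and AT4G33480 on number 6.

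In 6 genes the water arrays differed by at least 2 times between numbers 1 and 2 and numbers 5 and 6, in 4 of them with 1 and 2 the higher. The mean of water replicates 1 and 2 was 4.16 times that of 5 and 6 in AT1G01080, 2.81 times in AT4G09620, 2.56 times in AT4G24930 and 2.38 times in PIFI. In the treated arrays the same quotient was 1.35, 0.932, 1.38 and 0.898. In AT5G52660 and AT4G33540 the water quotient lay the other way, at 0.415 and 0.385, with 0.831 and 0.804 in the treated arrays. Differences of this size were thus found in 6 of 60 genes (10%, 4 with numbers 1 and 2 higher and 2 with 5 and 6 higher) and in 28 of the 545 rows with 1 gene and no 0 (5.14%, 16 and 12). What differed between the water samples of these numbers was not tested. Over the 60 genes, the SD of log2 intensity had a median of 0.25 in water and 0.35 after treatment, against 0.25 and 0.39 over the 545 rows, and it was larger in water in 22 genes.

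The 60 genes lie on all 5 chromosomes, with 18 on chromosome 1 (30%, against 25.1% of the 545 rows), 10 each on chromosomes 2 and 3, 16 on chromosome 4 (26.7%, against 19.1%) and 6 on chromosome 5 (10%, against 18.9%). The spacing of the 60 genes along the chromosomes was not compared with that of the 545 rows. The closest, AT4G05030 and AT4G05070, are 4 protein-coding genes apart in the TAIR10.1 order, and AT4G33480 and AT4G33540 are 7 apart.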

How the data were processed

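The authors deposited 1 table of linear intensity values, a row for each array feature and a column for each of 12 samples; how they scanned, corrected and scaled them is, like the earlier steps, not given in the sources used here. Groups and replicate numbers were read from the sample titles. Gene names came from the platform's annotation, which can be old, with symbols of the TAIR10.1 assembly: 692 rows carry 1 gene (690 with a matched locus), 870 carry several and 1877 are not listed. All 60 members matched a locus.

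Means, ratios and their SD were taken on the deposited intensities. For limma 3.58.1 (R 4.3.3), each 0 was replaced by 0.0157, the 1st percentile of positive intensities, log2 was taken, and, because array medians ranged over 0.47, values were quantile-normalized. lmFit and eBayes were run with group as the only term on all 3439 rows, with Benjamini-Hochberg adjustment and a threshold of 0.05, and were tested on simulated data. Arrays of equal number deviated together from their group means (correlations of 0.302 to 0.425, all above 0.1), so the numbers were taken to pair the samples, from this check and not from the labels. Deviations of adjacent-number arrays of one group correlated between -0.09 and 0.64, and those of other arrays of one group between -0.40 and -0.20. Between the groups, adjacent-number arrays correlated between 0.00077 and 0.336, a range that overlaps that of equal numbers. The check therefore does not settle whether the samples pair by equal number or by couples of adjacent numbers.

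The members, the gene lists and the tests were chosen with earlier results of these data known. The rule for named genes took the 15 largest ratios, the 10 highest water means, the 3 members just above the limit and 3 rows just under it, and members with an array far from the others, 30 members in all. The other 30 are named by role or to account for every member, chosen after their values were seen. A grouping by product keywords was void, as 4 of 60 members (6.67%, with 80% needed) have a descriptive synonym, and the promoter motifs planned were not searched, as no sequence was used here. Alternatives were other scalings, floors and a pseudocount, a filter on dim rows, a variance trend, the replicate block, averaged adjacent numbers, left-out arrays, and other forms of the rule. Plots were made in Python 3.11.15 with matplotlib 3.10.9.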

Additional observations from a re-analysis of the deposited data

Results flagged for a closer look

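Of 120 groups of 6 values (60 genes in 2 groups), 8 held 1 array far from the other 5 on the log2 scale. The limit used flags about 5% of groups when the 6 values are independent and normal. These arrays were correlated and the same values chose the rows. The chance share here is therefore unknown, and nothing is read from the count. Intensities are as deposited. For AT1G58230, water replicate 2 stood at 0.0153 and the others between 0.123 and 0.176. For AT3G04560, water replicate 2 stood at 0.0321 and the others between 0.210 and 0.346, and without that number the ratio of means was 2.01, against 2.26 with all. For AT4G22490, water replicate 2 stood at 0.721 and the others between 0.605 and 0.646, a gap that is large only beside a narrow group.

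Treated replicate 3 was the far array in 4 genes. It was high for AT1G05860, at 1.11 with the others between 0.309 and 0.346. It was low for AT1G34270 (0.507, others 0.731 to 0.822), for AT5G52530 (0.132, others 0.330 to 0.475) and for AT1G62760 (0.0745, others 0.180 to 0.270), and without number 3 the ratios of these 3 genes were 3.45, 2.75 and 1.97. For AT2G32470, treated replicate 1 stood at 0.376 and the others between 0.529 and 0.633.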

How the results depend on the processing

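The median log2 fold change of the 60 genes was 1.10 in the normalized values (0 over all rows), 0.97 as deposited (-0.08 over all rows), 1.07 with median centring (0.03) and 0.95 with a pseudocount of 0.0835 in place of the floor. With the replicate block, 56 of the 60 genes and 1252 rows passed, against 56 and 1131 without it, and among the partner genes and second rows tested here the block changed no call other than that of the second row of AT2G25870. On means of adjacent numbers 418 rows and 30 members passed, with replicates 1 to 3 alone 696 and 36, and with replicates 4 to 6 alone 626 and 36, fits with fewer samples. Without 1 array, 1010 to 1155 rows and 51 to 57 members passed, and the median log2 fold change was 1.06 to 1.11. The rule found 29 genes at a ratio of at least 2, 58 with medians in place of means (55 of them members), 40 with groups that do not overlap, and 59 to 66 without 1 replicate number (56 to 60 of them members). For the 30 genes named by the rule, 655 values under alternatives held 0 reversals, and 26 moved by more than the SD over the 6 pairs. The alternative promoter window was not run. The number of arrays limits the precision.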

Other observations

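The numeric criteria of the rule were also met by 83 of the 870 rows with several genes and by 203 of the 1877 rows that the annotation does not list, which are unnamed here. Over all rows, log2 fold changes of rows whose row numbers in the table are 1 apart correlated at 0.0815 (2558 pairs of rows), of those 2 apart at 0.000109 (2509 pairs) and of those 12 apart at 0.106 (2835 pairs). Rows share the arrays they were read from, and the sources used here do not say how a row number relates to a position on the array.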
